A study of Mus musculus with 2 samples.

Results

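The 10 genes described here encode the mouse MHC class II molecules, the proteins that load them with peptide, and their transcriptional activator: H2-Aa, H2-Ab1, H2-Eb1, Cd74, H2-DMa, H2-DMb1, H2-DMb2, H2-Oa, H2-Ob and Ciita. They were chosen by symbol, and all 10 were found among the 27998 genes of the count tables. Their unique molecular identifiers (UMIs, one per captured transcript) were counted in single cells of the stromal vascular fraction of epididymal fat, which is what remains of the tissue without its adipocytes. The mice were wild-type C57BL/6J males of 18 weeks, kept on a normal chow diet (NCD) or given a high-fat diet (HFD) for 12 weeks. There was 1 droplet library per diet, made with a 10x 3' kit. How many mice went into a library is not given in the sources used here, and diet and library cannot be told apart, so no test between diets was made.

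MHC class II molecules display peptides from engulfed or internalised proteins to CD4+ T cells. Of the classical molecules, the members hold both chains of I-A (α H2-Aa, β H2-Ab1) but only the β chain of I-E (H2-Eb1). Transcripts of H2-Eb1 alone thus do not show that I-E was made. The α and β chains assemble on the invariant chain, the product of Cd74. It blocks the groove and steers the complex to endosomes. There the invariant chain is cut down by cathepsins, and H2-DM (H2-DMa with H2-DMb1 or H2-DMb2) exchanges its last fragment for peptide. H2-DO (H2-Oa with H2-Ob) holds H2-DM back and is known from B cells and some dendritic cells. Ciita does not bind DNA itself: it is recruited by RFX, CREB and NF-Y proteins seated on the X and Y boxes upstream of these genes. Dendritic cells, B cells and macrophages are the classical class II cells, while fibroblast-like adipose progenitors and mesothelial cells carry little of it at rest.

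The 8 H2 genes lie within 224335 bases of chromosome 17 (GRCm38, 34092340 to 34316674), and Ciita lies at 10480059 to 10528418 of chromosome 16. RefSeq promoter windows (GRCm38.p6, from 250 bases before to 50 after the start) were at hand for 7 members. Stretches of 100 bases, from 125 to 26 before the start and on the gene's own strand, are shown for 6 of them, because the spacing of the Ciita-dependent boxes can be read in them. Capitals mark TGATTGG (a Y box core), a stretch of the X box (AAC, any 2 bases, then ATGATGC) and TGACGTCA (a CRE-like stretch, which reads the same on both strands).
H2-Aa, chr17:34287849-34287948: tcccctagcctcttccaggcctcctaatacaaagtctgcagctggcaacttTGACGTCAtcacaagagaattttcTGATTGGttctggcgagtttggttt
H2-Eb1, chr17:34305742-34305841: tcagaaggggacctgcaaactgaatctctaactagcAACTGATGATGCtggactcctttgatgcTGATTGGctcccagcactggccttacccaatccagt
H2-DMb1, chr17:34153066-34153165: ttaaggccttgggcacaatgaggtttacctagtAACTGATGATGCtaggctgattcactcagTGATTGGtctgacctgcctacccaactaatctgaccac
H2-DMb2, chr17:34145124-34145223: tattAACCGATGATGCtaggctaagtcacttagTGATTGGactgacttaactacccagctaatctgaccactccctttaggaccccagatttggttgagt
H2-Oa, chr17:34092254-34092353: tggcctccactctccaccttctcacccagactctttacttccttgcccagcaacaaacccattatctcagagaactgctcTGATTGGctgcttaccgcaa
H2-Ob, chr17:34238780-34238879: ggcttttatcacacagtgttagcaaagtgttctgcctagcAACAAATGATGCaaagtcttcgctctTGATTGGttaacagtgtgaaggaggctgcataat

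TGATTGG was found in the windows of 6 of the 7 members and, on either strand, in 7.82% of all 32851 promoter windows of the table. The X box stretch was found in those of H2-Eb1, H2-DMb1, H2-DMb2 and H2-Ob, which are 4 of only 13 windows with it in the table (0.0396%). In these 4 it preceded TGATTGG by 16, 17, 17 and 14 bases, and no other window of the table held the pair 10 to 30 bases apart on 1 strand. TGACGTCA stood in the H2-Aa window, as in 1.79% of windows, and H2-DMa, whose 2 windows held none of the 3 stretches, is not shown. The stretches were chosen after these promoters had been read, and a match describes letters, not a bound site. H2-DMb1 and H2-DMb2 lie next to each other, and with their X box stretches set one over the other they shared 86 of 100 bases around them. They are similar copies, so a read of one may have been counted for the other, and each value given for them separately carries that uncertainty. Its size was not tested, as promoter letters do not show how alike the transcript ends are that a 3' kit reads. NCD macrophages gave 4324 UMIs of H2-DMb1 and 33 of H2-DMb2.

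The NCD library held 7365 barcodes and 33825653 UMIs with a median of 4230 per barcode, and the HFD library held 6840 barcodes and 18623508 UMIs with a median of 2020. Cells were clustered without the 10 genes, and each class name below stands for a profile like that class by marker genes other than the members. After filtering there were 367 NCD and 180 HFD dendritic cells, 66 and 139 B cells, 2022 and 1936 macrophages, 3274 and 2896 progenitors, and 54 and 64 mesothelial cells. The names held in both libraries: the dendritic cell receptor Flt3 stood at 55.0 and 58.8 CPM (UMIs per 1000000 UMIs of the class) in dendritic cells, the B cell receptor subunit Cd79a at 1713 and 1712 CPM in B cells, the progenitor receptor Pdgfra at 260 and 208 CPM in progenitors, the macrophage receptor Csf1r at 904 and 273 CPM in macrophages, and the mesothelial antigen Msln at 1063 and 264 CPM in mesothelial cells. Transcripts typical of other cells, which free RNA caught in a droplet or an undetected doublet can bring, were more abundant in the HFD library. Markers of stromal cells stood in macrophages at 3.30% of their library level under NCD and at 24.5% under HFD, and macrophage markers stood in progenitors at 3.05% and 22.9%. All intervals below are 95% and cover counting error only, without variation between mice or libraries, and 64 barcode sequences occurred in both libraries.

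Dendritic cells carried the highest level of the classical chains and of the invariant chain in both libraries. Cd74, which lies at 60803848 to 60812652 of chromosome 18, stood at 36283 CPM in NCD dendritic cells, 25982 CPM in macrophages and 22305 CPM in B cells, and at 29955, 12952 and 19983 CPM in the HFD library. H2-Ab1 followed the same order, with 11928, 8173 and 5030 CPM under NCD and 10621, 3911 and 4300 CPM under HFD. B cells thus stood below macrophages in the NCD library and above them in the HFD library, for H2-Aa, H2-Ab1, H2-Eb1 and Cd74 alike, and no counting interval of these neighbours overlapped.

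The peptide exchange factor was split by cell type. H2-DMa was highest in dendritic cells, at 1222 CPM under NCD and 1084 CPM under HFD. B cells held 728 and 609 CPM and macrophages 646 and 304 CPM of it, and under NCD the intervals of these 2 classes overlapped. For its partner H2-DMb1 the order was dendritic cells (1073 and 801 CPM), macrophages (569 and 332 CPM) and B cells (248 and 189 CPM). For H2-DMb2 it was B cells (765 and 577 CPM), dendritic cells (172 and 141 CPM) and macrophages (4.34 and 12.7 CPM). The H2-DO genes followed H2-DMb2 rather than H2-DMb1. H2-Oa stood at 207 and 197 CPM in B cells and at 75.8 and 184 CPM in dendritic cells, and H2-Ob at 236 and 210 CPM in B cells and at 83.7 and 105 CPM in dendritic cells. Macrophages held 4 and 29 UMIs of H2-Oa in all, at 0.526 and 4.65 CPM.

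Ciita itself was sparse, with 467 UMIs in the whole NCD library and 120 in the HFD library. B cells and dendritic cells, at 45.5 and 42.5 CPM under NCD, overlapped in their intervals. Macrophages, at 25.5 CPM, lay below dendritic cells, and their interval overlapped that of B cells (11 UMIs). Under HFD the levels were 29.4 CPM in dendritic cells, 10.6 CPM in B cells (4 UMIs) and 9.30 CPM in macrophages, and neighbours in this order overlapped.

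**Figure D1:**
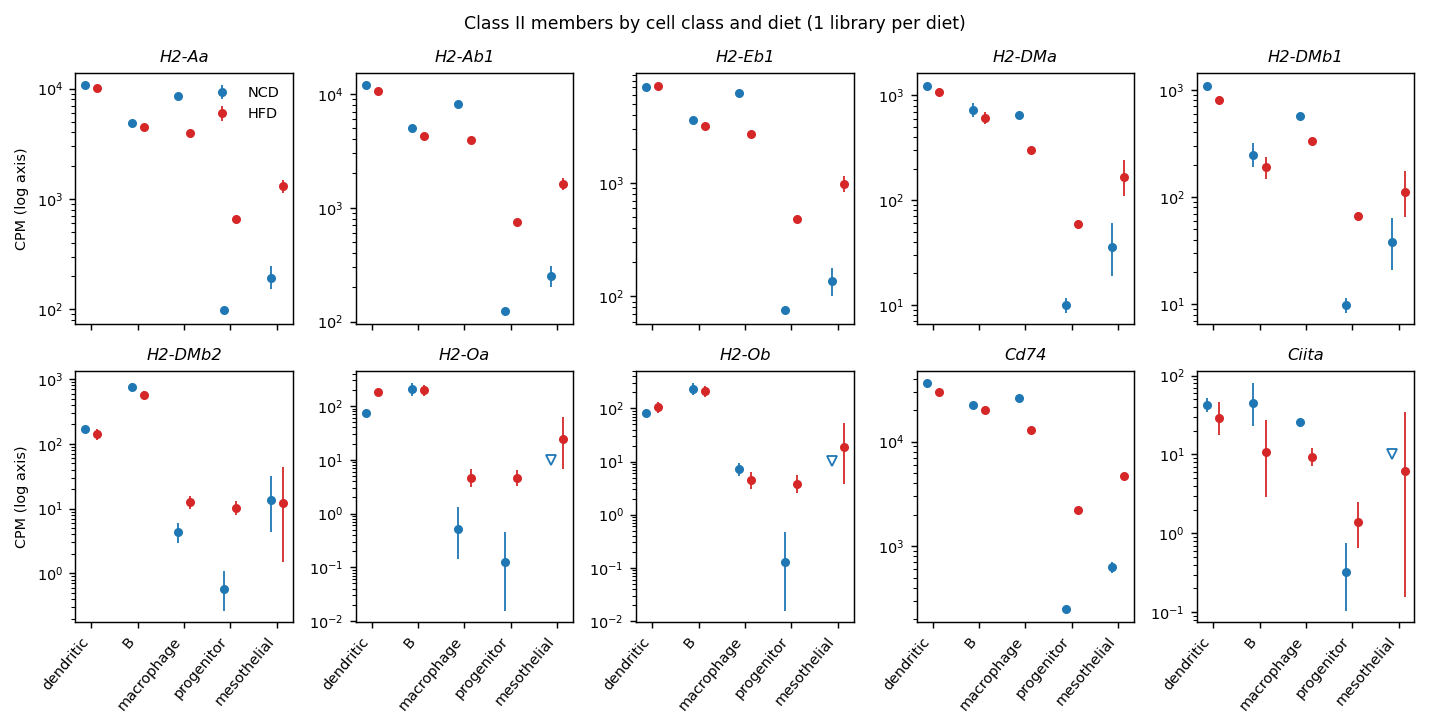
Level of each member in CPM (log axis) in 5 cell classes, with the NCD library in blue and the HFD library in red; bars are 95% counting intervals, and an open triangle gives the upper end where no UMI was counted. The classical chains, Cd74 and H2-DMa are high in all 3 immune classes, while H2-DMb2, H2-Oa and H2-Ob are high in B and dendritic cells only, of the 5 classes drawn.

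Proportions within a class compare transcripts without the scale of a library. Per 100 UMIs of H2-DMb1 there were 308 of H2-DMb2 in NCD B cells (229 to 420) and 306 in HFD B cells (233 to 405). Dendritic cells held 16.0 (14.4 to 17.8) and 17.6 (13.9 to 22.0), and macrophages 0.763 (0.525 to 1.07) and 3.81 (3.01 to 4.78). The balance of the copies in B cells was thus the same in both libraries within counting error and far from that of pooled dendritic cells. The small migratory dendritic subset was the exception, with 367 (190 to 763) and 100 (35.2 to 284). In B cell cluster 5.0 alone, which held few macrophage transcripts, H2-DMb1 gave 20 and 24 UMIs and H2-DMb2 171 and 183, so H2-DMb1 was scarcer there than in the pooled B cells. H2-Oa, per 100 UMIs of H2-DMa, stood at 28.4 (20.3 to 39.1) and 32.3 (24.5 to 42.2) in B cells, and at 0.0814 (0.0222 to 0.208) and 1.53 (1.02 to 2.21) in macrophages.

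**Figure D2:**
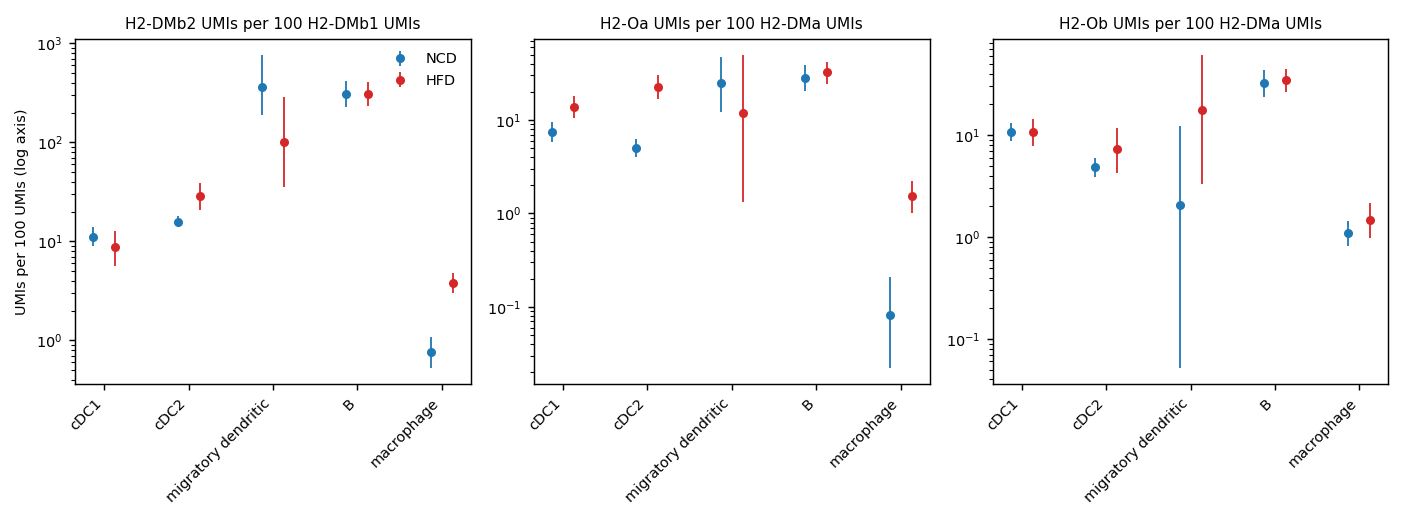
UMIs of H2-DMb2 per 100 of H2-DMb1, and of H2-Oa and H2-Ob per 100 of H2-DMa (log axes), in 3 kinds of dendritic cell, B cells and macrophages of the NCD (blue) and HFD (red) libraries; bars are 95% counting intervals. B cells of both diets coincide near 300 for the first proportion (308 and 306), and macrophages lie lowest in all 3 panels, though for H2-Ob the interval of the NCD migratory dendritic cells (1 UMI) spans their value.

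In macrophages most class II genes were lower in the HFD library. A gene was called lower or higher at a 1.5-fold difference and was measured at 10 CPM or more in either library with more than 3 UMIs. Of the 8 members measured in macrophages 7 were lower and 1 was higher, where of all 7412 genes measured in these cells 23.3% were lower and 16% higher. The median log2 HFD/NCD ratio was −1.08 over the members and −0.07 over all genes measured.

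For H2-Aa the level was 8499 CPM under NCD against 3945 CPM under HFD, 2.15-fold lower (2.12 to 2.19). H2-Eb1 stood at 6201 and 2706 CPM, 2.29-fold lower (2.25 to 2.33), and Cd74 at 25982 and 12952 CPM, 2.01-fold lower (1.99 to 2.02). These genes of the classical pathway and H2-DMa (2.13-fold) were thus lower by much the same factor, and H2-DMb1 by 1.71-fold (1.62 to 1.81). Ciita, with 194 and 58 UMIs, was 2.74-fold lower (2.04 to 3.75). Cd74 per 100 UMIs of H2-Ab1 was 318 under NCD and 331 under HFD.

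The difference was visible per cell at equal depth. Thinned to 2000 UMIs, the median NCD macrophage held 49 UMIs of Cd74 (quartiles 24 and 76, 1802 cells) and the median HFD macrophage 20 (quartiles 6.5 and 40, 1099 cells). H2-Ab1 had medians of 14 and 5 UMIs, and 220 NCD and 837 HFD cells were too shallow to enter. Ciita was detected in 5.16% of the thinned NCD cells (4.19 to 6.29) and in 22 of the 1099 HFD cells (1.26% to 3.02%), and in 8.75% and 2.74% before thinning. In thinned progenitors, which should lack it, the shares were 0.0646% and 0.140% (0.153% and 0.345% before thinning). Median depths were 3643.5 and 2158.5 UMIs in macrophages and 4575.5 and 1989 in progenitors.

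H2-DMb2, the copy typical of B cells here, was the 1 member called higher in HFD macrophages, with 33 UMIs (4.34 CPM) and 79 UMIs (12.7 CPM). The ratio was 2.92 (1.92 to 4.52). Stromal markers in these cells, read as a share of the library profile, corresponded to 8.38 and 44.8 free UMIs of it. The call held once macrophage clusters with more than 25% stromal markers were left out (33 and 58 UMIs, ratio 2.58, 1.65 to 4.08). With the library profile subtracted the ratio was 2.17, at 3.35 and 7.26 CPM, under the 10 CPM line. Under 2 other ways of selecting the cells the log2 ratio of 1.55 changed sign. It was −0.25 in cells of 1000 or more genes with no more than 10% mitochondrial UMIs. With each cell classed by its own marker score it was −0.17. H2-Oa, at 4 and 29 UMIs, met 2.24 and 24.9 UMIs from free RNA, and H2-Ob, at 54 and 28 UMIs, met 2.97 and 20.3. In thinned cells H2-Oa was found in 0 of 1802 NCD macrophages, which at that depth allows a share of cells with a UMI of up to 0.166%, and in 0.728% of HFD macrophages, below the 1.05% of HFD progenitors (unthinned shares were 0.198% and 1.45% in macrophages and 1.11% in HFD progenitors). Observed over expected was 1.79 (0.488 to 4.58) and 1.17 (0.781 to 1.68) for H2-Oa, and 18.2 (13.7 to 23.7) and 1.38 (0.918 to 1.997) for H2-Ob.

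**Figure D3:**
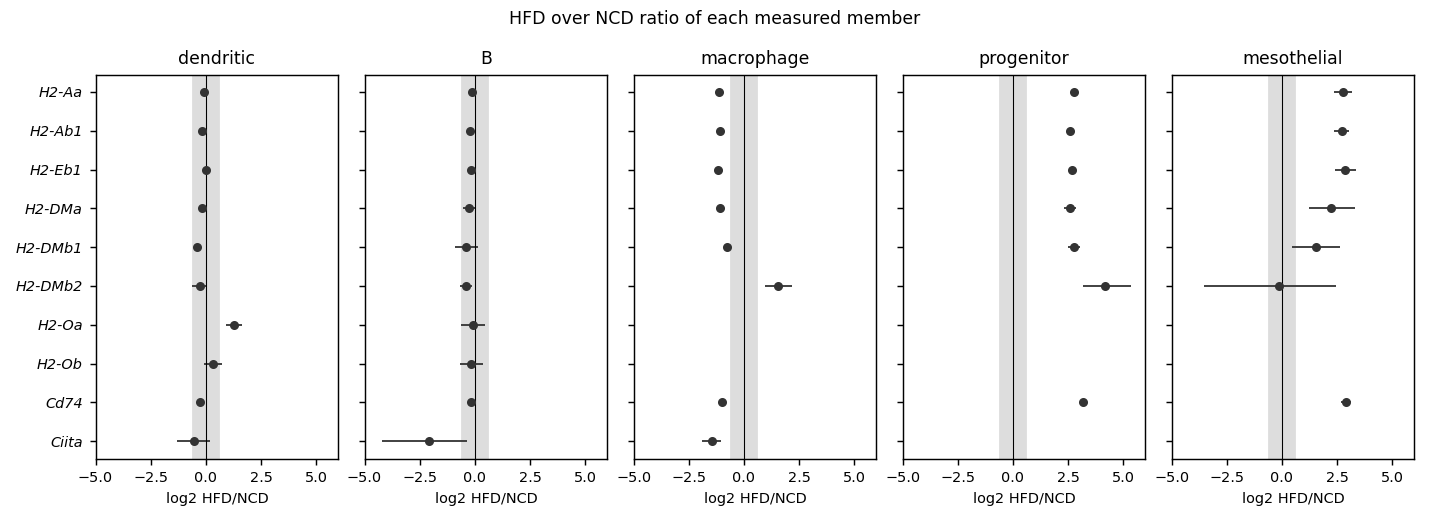
Log2 ratio of HFD over NCD CPM for each member measured with a UMI in both libraries, in 5 cell classes; bars are 95% counting intervals and the grey band marks differences under 1.5-fold. Macrophages lie left of the band for all members drawn but H2-DMb2, dendritic and B cells lie mostly within it, and progenitor and mesothelial cells lie right of it for all members drawn but H2-DMb2 in mesothelial cells.

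The macrophages of the libraries were largely different clusters, and the level differed widely among them. Most NCD macrophages lay in clusters 2.0, 1.0, 1.2, 2.1, 1.1 and 2.2 (566, 349, 283, 275, 248 and 225 cells), with Cd209f, Lyve1, Pf4 or Retnla among their leading genes, which are genes of tissue-resident macrophages. Most HFD macrophages lay in clusters 17.2, 6.0, 17.1, 17.0 and 23.2 (654, 433, 301, 187 and 137 cells), with Trem2, Gpnmb, Mmp12 or Ms4a7 among theirs, of which Trem2 and Gpnmb are known from lipid-laden macrophages. Cd74 ranged from 13782 to 42736 CPM over the 9 NCD clusters and from 2088 to 38496 CPM over the 11 HFD clusters. Both ranges exceeded the 2.01-fold difference between the pooled classes.

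The lowest cluster of the NCD library was 2.0, with the highest level of the resident marker Lyve1 (1433 CPM) and 13782 CPM of Cd74. The highest was 1.2, led by Mgl2, with 102 CPM of Lyve1 and 42736 CPM of Cd74. In the HFD library the Gpnmb-rich cluster 17.2 (1329 CPM of Gpnmb) held 8194 CPM of Cd74, and cluster 17.0, with 88.9 CPM of Gpnmb, held 25820 CPM. Low Cd74 was not limited to Gpnmb-rich clusters. Clusters 22.1 and 22.2 (56 and 54 HFD cells), with 510 and 308 CPM of Lyve1 and 64.7 and 35.2 CPM of Gpnmb, held 7930 and 4869 CPM of Cd74. Stromal markers stood in them at 23.4% and 105% of the library level, and the part of stromal RNA in these values was not tested. Of the 6 clusters with at least 10 cells in both libraries, Cd74 was lower under HFD in 3 and within 1.5-fold in 3, and the counts were the same for H2-Aa, H2-Ab1 and H2-Eb1. It stood at 13782 and 2088 CPM in cluster 2.0, at 21800 and 8127 CPM in cluster 2.1 and at 15719 and 7873 CPM in the cycling cluster 23.1. It stood at 42736 and 38496 CPM in cluster 1.2, at 37354 and 25820 CPM in cluster 17.0 and at 15618 and 20500 CPM in cluster 17.1. In each of these pairs 1 library gave few cells, between 10 and 36, so the split of the class difference into level within clusters and mixture of clusters was not tested.

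Stromal markers also differed between the libraries in this class. In macrophage clusters with stromal markers at or below 25% of the library level, Cd74 stood at 25989 and 12978 CPM with stromal markers at 3.30% and 16.0%, still apart between the libraries.

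**Figure D4:**
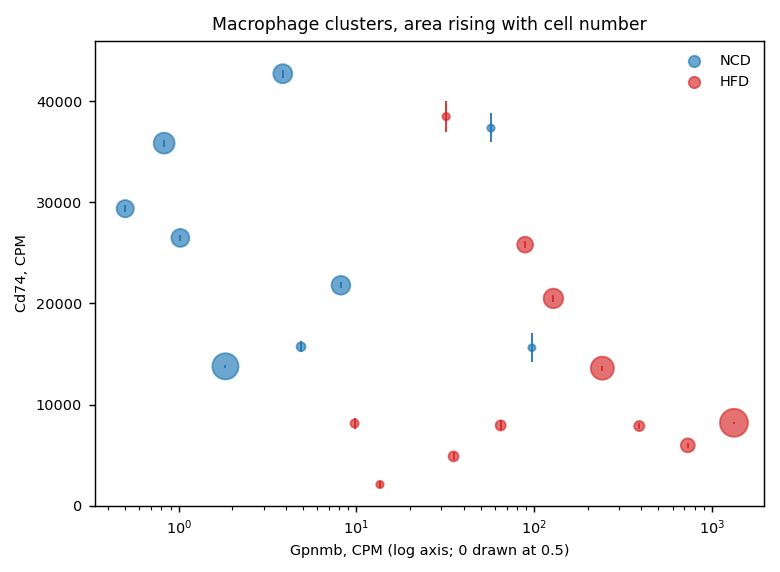
Cd74 (CPM) against the lipid-associated gene Gpnmb (CPM, log axis, 0 drawn at 0.5) in each macrophage cluster of the NCD (blue) and HFD (red) libraries; the area of a point grows with its cells and bars are 95% counting intervals. NCD clusters lie at low Gpnmb and spread from 13782 to 42736 CPM of Cd74, and the 2 HFD clusters with the most Gpnmb lie at 5962 and 8194 CPM. HFD clusters with less Gpnmb spread from 2088 to 38496 CPM.

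Dendritic cells showed little difference between the libraries except in H2-Oa. Of 10 members 9 stayed within 1.5-fold and 1 was higher, where of all 7019 genes measured 22% were lower and 13.2% higher, and the median log2 ratio was −0.17 against −0.11 over all genes. H2-Aa stood at 10718 and 10193 CPM, H2-Eb1 at 7075 and 7201 CPM, H2-DMa at 1222 and 1084 CPM, and Cd74 was 1.21-fold lower under HFD (1.19 to 1.23). In these cells stromal markers were at 3.12% and 16.5% of the library level and macrophage markers at 23.0% and 19.0%. With each cell classed by its own marker score, which took in 688 NCD and 590 HFD cells, 8 of 10 members were lower, where 17.8% of 7651 genes were lower and 15.6% higher. The median was −0.76 over the members and −0.06 over all genes, so the small difference seen here rests on the clustered classes.

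H2-Oa, the α chain of the H2-DM inhibitor, gave 182 UMIs (75.8 CPM) under NCD against 119 UMIs (184 CPM) under HFD, 2.43-fold higher under HFD (1.91 to 3.08). Its partner H2-Ob, at 83.7 and 105 CPM, stayed within 1.5-fold (ratio 1.26, 0.940 to 1.66). Free RNA at the stromal share corresponded to 0.277 and 2.68 CPM of H2-Oa. The makeup of the class differed: cDC1, which cross-present antigen to CD8+ T cells, were 113 NCD and 106 HFD cells, cDC2, which mainly prime CD4+ T cells, 228 and 48, and migratory dendritic cells, which carry antigen to lymph nodes, 26 and 26.

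Within the subsets H2-Oa stood at 102 and 176 CPM in cDC1 (ratio 1.72, 1.21 to 2.44) and at 62.5 and 253 CPM in cDC2 (ratio 4.04, 2.85 to 5.69). It was higher under HFD in each of the 4 cDC clusters with at least 10 cells in both libraries: 138 and 306 CPM in cluster 18.1, 101 and 214 CPM in 18.2 (ratio 2.13, 0.829 to 6.12), 115 and 198 CPM in 19.0, and 20.6 and 154 CPM in 19.1, where NCD gave 2 UMIs (ratio 7.45, 1.86 to 64.7). A cycling cluster named cDC2 held 25 UMIs in 77 NCD cells (32.1 CPM, 20.8 to 47.5) and 18 UMIs in 9 HFD cells (239.9 CPM, 142 to 379). Lyz1, which also led clusters left unnamed, was among its leading genes and Cd209a was not, so its name is less sure. Macrophage markers stood there at 44.7% under NCD, and at 6.81% to 49.4% in the other NCD cDC2 clusters. The cycling cluster gave 777770 of the 1519831 NCD cDC2 UMIs, so the pooled and thinned cDC2 values of H2-Oa lean on it. Without that cluster the log2 ratio over all dendritic cells was 0.87 in place of 1.28, and with cells classed by marker score it was 0.41, under the 1.5-fold line. In cells thinned to 2000 UMIs the mean was 0.275 UMIs in NCD (109 cells) and 0.259 in HFD cDC1 (54 cells), and 0.147 (218 cells) and 0.556 (36 cells) in cDC2. The higher level was thus not seen in the cDC1 deep enough to be thinned, which left out 4 and 52 cells.

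The subsets otherwise differed in detail. In cDC1, 2 of 10 members were lower and H2-Oa was higher, with 21.9% of 6739 genes lower and 20.7% higher. The lower ones were H2-DMb2, at 128 and 80.9 CPM, and Ciita, with 38 and 9 UMIs and an interval that included no difference (ratio 0.501, 0.213 to 1.05). Stromal markers stood in cDC1 at 2.22% and 21.2% of their library level, and macrophage markers at 5.59% and 23.6%. In cDC2 H2-Oa alone was called higher and none was lower, with 24% of 7142 genes lower and 19.8% higher. Pooled cDC2 held 36082 and 35850 CPM of Cd74, but the cycling cluster (77 NCD and 9 HFD cells) held only 22451 CPM under NCD. In the other cDC2 clusters found in both libraries Cd74 was somewhat lower under HFD. It stood at 51942 and 40628 CPM in cluster 18.1 (ratio 0.782, 0.752 to 0.814) and at 39764 and 35290 CPM in 18.2 (0.887, 0.841 to 0.936). In migratory cells 7 of 9 members were lower and none higher, with 26.7% of 3759 genes lower and 24.4% higher. The intervals of H2-Oa (12 and 2 UMIs, ratio 0.315, 0.0342 to 1.41) and Ciita (4 and 1 UMIs, 0.472, 0.00958 to 4.77) included no difference. Stromal markers stood in these cells at 4.05% and 22.8% of their library level, and macrophage markers at 5.04% and 22.8%. Cd74 stood there at 29834 and 18446 CPM (1.62-fold lower, 1.52 to 1.72) and H2-Ab1 at 5756 and 3123 CPM (1.84-fold, 1.60 to 2.13), over 26 cells of each library. H2-Ab1 was scarce in migratory cells compared with the other subsets, and Cd74 per 100 UMIs of H2-Ab1 was 518 and 591 there, against 278 and 273 in cDC1 and 308 and 268 in cDC2.

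In B cells the members stayed within 1.5-fold in all but Ciita, which was sparse. Of 10 members 1 was lower and none higher, where 20% of 7289 genes were lower and 25.6% higher, and the median log2 ratio was −0.21 (0.06 over all genes). H2-Aa stood at 4906 and 4512 CPM, H2-Eb1 at 3624 and 3164 CPM and H2-DMa at 728 and 609 CPM. Ciita gave 11 NCD and 4 HFD UMIs, a ratio of 0.234 (0.0543 to 0.789). Cluster 5.2, with 7 NCD and 70 HFD cells, held in the HFD library stromal markers at 66.5% and macrophage markers at 67.6% of the library level. Without it the remaining 59 NCD and 69 HFD cells held 22877 and 22904 CPM of Cd74 and 4396 and 4617 CPM of H2-Ab1, with a median log2 ratio of 0.010. Ciita gave 8 and 4 UMIs there, a ratio of 0.428 (0.0942 to 1.60).

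In progenitors, the cells that give rise to adipocytes, class II transcripts were low, higher under HFD, and near the level set by the library profile and the macrophage markers. All 7 members measured were called higher, where 8.02% of 8082 genes were higher and 15.1% lower, and the median log2 ratio was 2.75 (−0.21 over all genes). For Cd74 the level was 249 CPM under NCD against 2236 CPM under HFD, a ratio of 8.98 (8.67 to 9.30), and for H2-Ab1 it was 125 and 743 CPM (5.94, 5.64 to 6.26). Ciita gave 5 UMIs in 3274 NCD cells and 10 UMIs in 2896 HFD cells. Most NCD progenitors lay in clusters 8.0 to 9.1 and 12.0 to 13.1, and most HFD progenitors in clusters 4.0 and 4.2 (1383 and 608 cells).

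The 7 macrophage markers, among them C1qa and Csf1r, moved with this difference, from 3.05% to 22.9% of their library level. At those shares of the library profile, 10938 NCD and 26591 HFD UMIs of the 10 members were to be expected in progenitors, and 8878 and 31109 were counted. Observed over expected was thus 0.812 (0.795 to 0.829) and 1.17 (1.16 to 1.18). With the profile of the macrophages themselves in place of the whole library it was 1.28 and 1.73. With the library profile subtracted at the marker share, NCD progenitors kept 8.85 CPM of H2-Ab1 and were at the floor for Cd74, and HFD progenitors kept 188 CPM of H2-Ab1 and 378 CPM of Cd74. Per UMI of the macrophage markers, progenitors held 3.52 member UMIs under NCD and 3.26 under HFD, and the whole libraries 4.12 and 2.74.

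Where macrophage markers were lower, the difference was smaller, but the HFD cells were then also of other clusters. The cut at 10% left out HFD clusters 4.0, 4.2 and 7.0 (1383, 608 and 272 cells), so cluster changed together with the level of macrophage markers. In progenitor clusters with these markers at or below 25% of the library level (3266 NCD and 1203 HFD cells) Cd74 stood at 249 and 884 CPM and the median log2 ratio was 1.52. In those at or below 10% (3266 and 595 cells, markers at 3.06% and 5.19%) it stood at 249 and 362 CPM, H2-Ab1 at 125 and 170 CPM, the median was 0.40, and 1 of 6 members was called higher: H2-DMb1, with 154 and 67 UMIs. Among HFD progenitors thinned to 2000 UMIs, cells with no macrophage-marker UMI held a mean of 3.47 UMIs of the class II chains and Cd74, and those with 5 or more held 18.9. NCD progenitors held 0.988 and 17.5. At least 1 UMI of Cd74 was found in 34.9% and 71.6% of thinned progenitors (60.9% and 82.0% before thinning). Among cells with no macrophage-marker UMI the shares were 34.3% and 56.7%. The part of free RNA in these values was not tested.

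**Figure D5:**
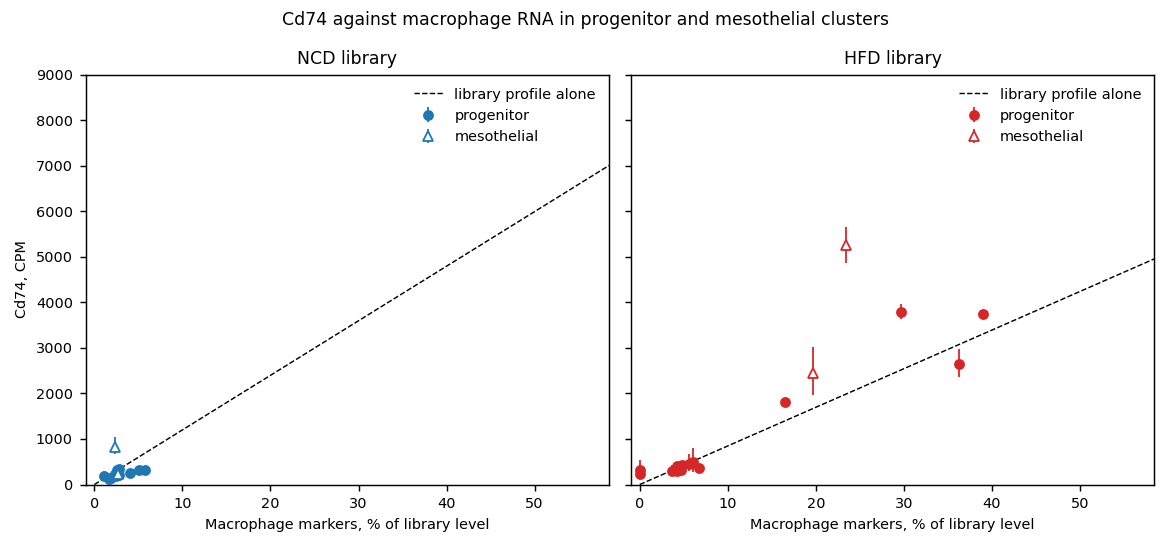
Cd74 (CPM) against the level of macrophage markers (percent of their library level) in clusters of progenitors (circles) and mesothelial cells (triangles) of the NCD and HFD libraries; bars are 95% counting intervals and the dashed line is what the library profile alone would give. NCD progenitor clusters sit near the origin, HFD progenitor clusters spread on both sides of the line, and both mesothelial clusters of the HFD library lie above it.

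Mesothelial cells, which line the fat pad, were few and held more class II transcripts under HFD. Of 8 members measured 7 were called higher and 1 was within 1.5-fold, where 18.9% of 8213 genes were higher and 33.2% lower, and the median log2 ratio was 2.46 (−0.15 over all genes). Cd74 stood at 627 and 4654 CPM, a ratio of 7.42 (6.40 to 8.64), and H2-Ab1 at 251 and 1631 CPM. H2-Oa, with 0 and 4 UMIs, was counted as higher with 3 UMIs set for the 0, and Ciita gave 0 and 1 UMI. Macrophage markers stood at 2.52% and 27.3%.

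Observed over expected UMIs were 2.24 (2.04 to 2.45) in the NCD library and 2.05 (1.95 to 2.16) in the HFD library. Under NCD, 3 of the 54 cells held 286 of the 475 member UMIs (60.2%), and without them the ratio was 1.10. Under HFD, the 3 richest cells held 305 of 1454 UMIs (21.0%), and without them the ratio was 1.92. Cluster 0.2, with 52 of the 64 HFD cells, held macrophage markers at 23.4%. The remaining 12 HFD cells gave 1.60 and the 51 NCD cells without it 1.27. With 8 general leukocyte markers in place of the macrophage markers the ratios were 1.01 and 1.56. The NCD excess thus rested largely on 3 cells, and over all alternatives the HFD ratio ran from 1.44 to 3.01.

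Endothelial cells and T cells, which carry little class II at rest in mice, also held these transcripts. Of 7 members measured in endothelial cells 2 were lower and none higher, where 23.2% of genes were lower and 15.3% higher. Endothelial Cd74 stood at 6084 and 5404 CPM, but macrophage markers stood there at 69.2% and 62.5% of the library level, and observed over expected member UMIs were 0.766 and 1.01. In T cells 6 of 8 members were higher and none lower, where 22.7% of genes were higher and 26.8% lower. They held 2016 and 5884 CPM of Cd74 with macrophage markers at 8.63% and 46.2%, and observed over expected was 1.91 and 1.55.

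Genes that work around class II differed in both directions in macrophages. Of all genes measured in these cells 16% were higher and 23.3% lower. Of 9 genes of processing and turnover 4 were higher and 2 lower under HFD, a median log2 ratio of 0.50 beside −0.07 over all genes. The higher ones were the cathepsins: Ctss, which trims the invariant chain, at 908 and 1822 CPM, Ctsl at 264 and 1326 CPM, Ctsb at 2395 and 4234 CPM and Ctsd at 500.2 and 2970.2 CPM. March1, a ubiquitin ligase that removes class II from the surface, was lower, at 55.5 and 19.2 CPM. Of 5 costimulation and adhesion genes measured 4 were lower, among them Cd86, a ligand of CD28, at 99.0 and 34.8 CPM and Icam1 at 87.6 and 46.2 CPM, while Cd83 stood at 232 and 255 CPM. The median over these 5 was −0.92.

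Of 15 regulators measured 5 were lower and none higher in macrophages, where 23.3% of all genes were lower and 16% higher, with a median of −0.23. Irf1, an interferon-induced activator of Ciita, stood at 112 and 66.8 CPM, the kinase Jak1 at 145 and 87.0 CPM and the coactivator Crebbp at 52.6 and 31.3 CPM. The interferon-γ receptor chains Ifngr1 (172 and 151 CPM) and Ifngr2 (59.95 and 82.7 CPM) stayed within 1.5-fold. Of 12 class I presentation genes 11 stayed within 1.5-fold and the chaperone Canx was lower, at 293 and 162 CPM; H2-K1 stood at 658 and 512 CPM. Among partners of class II and Cd74, 2 of 3 were higher, the chemokine receptor Cxcr4 at 35.6 and 208 CPM and the Cd74 ligand Mif at 105 and 259 CPM, with the co-receptor Cd44 at 150 and 203 CPM.

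In dendritic cells 13.2% of all genes measured were higher and 22% lower, which the list counts below are to be read beside. Of 8 processing genes 4 were higher and 1 lower, a median of 0.58 beside −0.11 over all genes. The higher ones were Ctsl at 28.3 and 226 CPM, Ctsd at 87.9 and 292 CPM, Ctsb at 232 and 509 CPM and Lgmn, a lysosomal endopeptidase, at 63.7 and 116 CPM. In HFD macrophages these 4 stood at 1326, 2970.2, 4234 and 1052 CPM, and the part of macrophage RNA in the dendritic values was not tested. Of 16 regulators 3 were lower and 1 higher, with Jak2 at 67.1 and 30.9 CPM and Irf8, needed for cDC1, at 786 and 705 CPM. Of 13 class I genes 1 was higher (B2m, 1601 and 2520 CPM) and 1 lower, and of 6 costimulation genes 1 was lower, with Cd86 at 67.9 and 74.3 CPM. Cxcr4 stood at 26.2 and 121 CPM and Cd44 at 290 and 118 CPM, and 2 of 4 partners were higher and 1 lower. H2-Eb2, the other class II gene of the table, was low, at 5.42 and 10.8 CPM, and called higher.

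Likeness to the class II profile was measured as Pearson's r of log2(CPM + 10) with the mean of H2-Aa, H2-Ab1, H2-Eb1 and Cd74 over 14 profiles, 7 classes in each library. The profiles share libraries, depth and free RNA, so r is a description. Among the members not in that mean, H2-DMa reached 0.975, H2-DMb1 0.966 and Ciita 0.880, and H2-Ob, H2-Oa and H2-DMb2 reached 0.647, 0.623 and 0.603. The 10 non-members with the highest r were Pld4 (0.974), Spi1 (0.960), Cd83 (0.954), Ly86 (0.943), Irf8 (0.935), Evi2a (0.930), Sgk3 (0.925), Cd86 (0.924), Plek (0.923) and Alox5ap (0.920). Pld4 stood at 422 and 186 CPM in macrophages and at 281 and 241 CPM in dendritic cells, and Spi1, which encodes the myeloid and B cell factor PU.1, at 341 and 388 CPM and at 362 and 348 CPM.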

How the data were processed

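The deposited values are raw UMI counts per gene and barcode, 1 matrix per library, which the authors made with Cell Ranger against mm10, per the submitters' processing notes; versions are not given in the sources used here. Per the labels' protocols, tissue was digested with 1 mg/ml collagenase for 30 min, and about 6000 cells per channel were aimed at, at 50000 reads per cell. All columns were used.

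Barcodes with at least 500 genes, 1000 UMIs and at most 20% mitochondrial UMIs were kept (7163 NCD, 6444 HFD). Scrublet (expected rate 5%) removed 182 NCD doublets at its own threshold. That threshold called 0 HFD barcodes, so the top 5% of scores, 342, were removed. Counts scaled to 10000, 2000 variable genes without the members and 30 components were clustered with Leiden at resolution 1, then 0.3 within clusters (76 in all), using scanpy 1.11.5 and igraph 0.11.9 in python 3.11.15. A cluster took the name of its best-scoring class when at least 3 and at least 60% of the class's markers stood 1.5-fold above the median. It stayed unnamed if its 10 leading genes held more markers of another class, or if another class scored within 0.5 log2. So did a shallow cluster with no marker of its class among those genes. Such rules left out cluster 6.1 (299 HFD cells, led by Mmp12 and Gpnmb) and cluster 3.1 (204 NCD cells, led by Lyz1). The naming rule was adjusted after the clusters were seen, and 680 NCD and 548 HFD cells stayed unnamed.

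UMIs were summed per class and library and divided by their total (CPM). Intervals are exact (Poisson, Clopper-Pearson, or conditional binomial for ratios; scipy 1.17.1). With 1 library per diet there is no test. The share of free RNA is the median, over 15 stromal or 7 macrophage markers, of the level in the class over that in the library. The intervals were tried on simulated Poisson counts only. Those counts hold no variation between cells, mice or libraries, so the trial does not show how the intervals fare with it. Gene positions are from the GENCODE annotation of GRCm38 and promoters from RefSeq.

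Named were all members, up to 5 genes per list at 50 CPM or more by size of ratio, and the 10 genes most like the class II mean. Values of some genes beyond these (Gpnmb, Lyve1, marker levels, Pld4 and Spi1 by class) were chosen after they were seen. The members and the lists (regulators, processing and turnover, costimulation and adhesion, class I presentation, partners, other class II genes) were chosen with earlier results of these data known.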

Additional observations from a re-analysis of the deposited data

Results flagged for a closer look

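The HFD/NCD ratio of the class II genes ran in opposite directions in macrophages and in the stromal classes: lower in macrophages, higher in progenitors and mesothelial cells. The difference between classes was not tested, since there is 1 library per diet. The log2 ratio in progenitors minus that in macrophages was 3.87 for H2-Aa, 3.63 for H2-Ab1, 3.87 for H2-Eb1, 3.66 for H2-DMa, 3.52 for H2-DMb1 and 4.17 for Cd74. The same difference for mesothelial cells was 3.86 for H2-Aa, 3.76 for H2-Ab1, 4.05 for H2-Eb1, 3.31 for H2-DMa, 2.31 for H2-DMb1 and 3.90 for Cd74. Macrophage markers, which these stromal classes should lack, went from 3.05% to 22.9% of their library level in progenitors and from 2.52% to 27.3% in mesothelial cells. Their part in the result was not tested.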

How the results depend on the processing

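No paired analysis was possible because there is 1 library per diet. Of single-gene values 401 kept their direction and size under an alternative, 178 moved and 2 reversed; of the summary values 56 stayed and 48 moved. The reversed ones were H2-DMb2 in macrophages, at −0.25 with the stricter cell filter (1000 genes, 10% mitochondrial) and −0.17 with cells classed by their own marker score. The cause of these changes was not tested.

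Median log2 ratio of the members. In dendritic cells (−0.17) it was −0.084 with median ratio scaling, 0.16 with the stricter filter (528 and 48 cells), −0.76 by marker score, −0.32 with cells weighted equally, 0.0036 with the library profile subtracted, −0.026 in clusters at or below 25% free RNA, −0.33 without the cycling cluster and 0.088 with the Lyz1 clusters. In B cells (−0.21) it was 0.21 with the stricter filter (22 and 25 cells), −0.47 by marker score, 0.12 after subtraction, −0.084 at or below 25% and 0.010 without cluster 5.2. In macrophages (−1.08) it was −1.02 with median ratio scaling, −1.01 by marker score, −0.99 with equal weights and −0.96 after subtraction. In progenitors (2.75) it was 1.52 at or below 25% and 0.40 at or below 10%. In mesothelial cells (2.46) it was 3.18 with equal weights and 3.28 with the 25% cut. That cut kept all 64 HFD cells, whose macrophage markers stood at 27.3% when pooled. It left out only the 3 NCD cells of cluster 0.2, for their small number, so 3.28 is not a value for cells of low free RNA. Median ratio scaling gave 2.94 in progenitors and 2.62 in mesothelial cells.

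Observed over expected UMIs. In NCD progenitors (0.812) the ratio was 0.734 with the stricter filter, 0.927 with doublets kept, 0.785 by marker score, 0.746 with the members among the variable genes, 0.752 with leukocyte markers and 1.28 with the macrophage profile. In HFD progenitors (1.17) these gave 1.22, 1.22, 1.10, 1.13, 1.11 and 1.73, and 1.19 without the 3 richest cells. In NCD mesothelial cells (2.24) it was 1.24 with the stricter filter, 1.53 with doublets, 1.64 by marker score, 1.01 with leukocyte markers, 3.64 with the macrophage profile, 1.10 without the 3 richest cells and 1.27 without cluster 0.2. In HFD mesothelial cells (2.05) it was 1.83 with no filter, 2.26 with doublets, 1.44 by marker score, 1.56 with leukocyte markers, 3.01 with the macrophage profile, 1.92 without the 3 richest cells and 1.60 without cluster 0.2.

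The stricter filter left 4 HFD mesothelial cells, subtraction took most members in NCD progenitors to the floor and no HFD mesothelial cluster lay at or below 10%, so these gave no value. Ciita, H2-Oa and H2-Ob are limited by depth outside B and dendritic cells.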

Other observations

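Cells with Lyz1, Ear2 and Retnla among their leading genes, 500 under NCD and 12 under HFD, met no class name. They were looked at after their values were seen. They held 23467 CPM of Cd74 and 7566 CPM of H2-Ab1 in the NCD library, near the level of macrophages, but also 388 UMIs of H2-DMb2 (137 CPM, 124 to 151), near the level of dendritic cells. That was 34.4% of all H2-DMb2 UMIs of the library, beside 36.5% in dendritic cells and 16.4% in B cells. H2-Oa stood there at 9.89 CPM and Ciita at 34.3 CPM. The 12 HFD cells held 27816 CPM of Cd74 and 1 UMI of H2-DMb2.

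Group 2 innate lymphoid cells, tissue-resident lymphocytes of type 2 immunity, showed H2-Oa without H2-DMb2. The 90 NCD cells gave 12 UMIs of H2-Oa (52.6 CPM, 27.2 to 92.0), 0 UMIs of H2-DMb2, which allows up to 3, and 1228 CPM of Cd74. The 6 HFD cells gave 3 UMIs of H2-Oa. Classical monocytes held 15513 and 10610 CPM of Cd74 in 64 NCD and 25 HFD cells. Plasma cells held 13231 and 9026 CPM in 23 and 120 cells, with stromal markers at 15.3% and 56.6% of their library level.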
